A study of Mus musculus with 10 samples.

Results

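BMP signalling was examined through 10 genes of the pathway in embryonic dorsal root ganglia (DRGs), the sensory ganglia that lie along the spinal cord. They were the ligand genes Bmp2, Bmp4, Bmp5 and Bmp7, the target genes Id1, Id2, Id3, Id4 and Smad6, and Nog, which encodes the secreted BMP antagonist noggin. The genes were listed by name, without a rule on their values, but with earlier results of these data known. All 10 were measured by a probe set of their own among 19938 genes. The Lkb1 KO samples were 5 pools from embryos whose floxed Lkb1, the gene now named Stk11, was removed from neural crest cells by Wnt1-cre, and they were compared with 5 pools of WT littermates on the same mixed genetic background. All pools were taken at E13.5 and each held the DRGs of 2 embryos on 1 one-colour Affymetrix Mouse Gene 1.0 ST array, so that 1 replicate is 1 pool. Wnt1-cre is active in neural crest cells, the midbrain and the dorsal neural tube, so sensory neurons and glia come from the deleted lineage while endothelial cells and macrophages of the same sample do not.

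All levels are deposited log2 RMA values, in which a difference of 1 is a 2-fold change, and they serve to compare samples for 1 gene, not 1 gene with another. Stk11 was at 7.68, 7.82, 7.69, 7.77 and 7.94 in Lkb1 KO pools 1 to 5, against 8.61, 8.61, 8.51, 8.70 and 9.08 in WT pools 1 to 5, with no overlap (log2 fold change -0.92 with a standard error of 0.092 and an adjusted p of 1.15e-04 from limma). No source used here says whether these probes fall within the deleted exons. The ganglion label was checked by the levels of the sensory neuron genes Isl1 (11.51 in Lkb1 KO, 11.77 in WT), Prph (11.94 in Lkb1 KO, 12.04 in WT) and Scn9a (12.68 in Lkb1 KO, 12.73 in WT). Glial Fabp7 was at 13.52 in Lkb1 KO and 13.56 in WT. The paper took RNA from harvested DRGs, so neurons were not measured alone. In such bulk RNA, fewer cells of a type and less RNA per cell cannot be told apart. At an adjusted p under 0.05, the threshold used throughout, 496 of the 19938 genes were higher in Lkb1 KO and 275 lower, around a median log2 fold change of -0.0017.

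BMPs are secreted ligands of the TGF-beta superfamily that bind paired serine/threonine kinase receptors. The receptors phosphorylate SMAD1, SMAD5 and SMAD9, which join SMAD4 and enter the nucleus, where the Id genes and the inhibitory SMADs are among the most immediate targets, so that Id and Smad6 transcripts are commonly read as a gauge of BMP signalling. In the trunk, BMPs from the dorsal neural tube and neighbouring tissues act on neural crest cells during their formation and migration and on the sympathetic neurons that arise from them. Id proteins carry a helix-loop-helix domain without a DNA-binding region and hold back the basic helix-loop-helix factors that drive neuronal differentiation.

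Of the 10 genes, Bmp5 passed the test, and it was higher in Lkb1 KO DRGs. None of the 4 Id genes, Smad6 or Nog passed in either direction, nor did Bmp2, Bmp4 or Bmp7 without a term for the replicate number. This is 1 of 10 genes, where 3.87% of all genes tested passed in either direction and 2.49% passed as higher. At an unadjusted p under 0.05 there were 2 of 10 (Bmp5 and Bmp7), against 15.3% of all genes. The median log2 fold change of the 10 was 0.033, with 6 of them above 0, where 49.1% of all genes were.

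**Figure D1:**
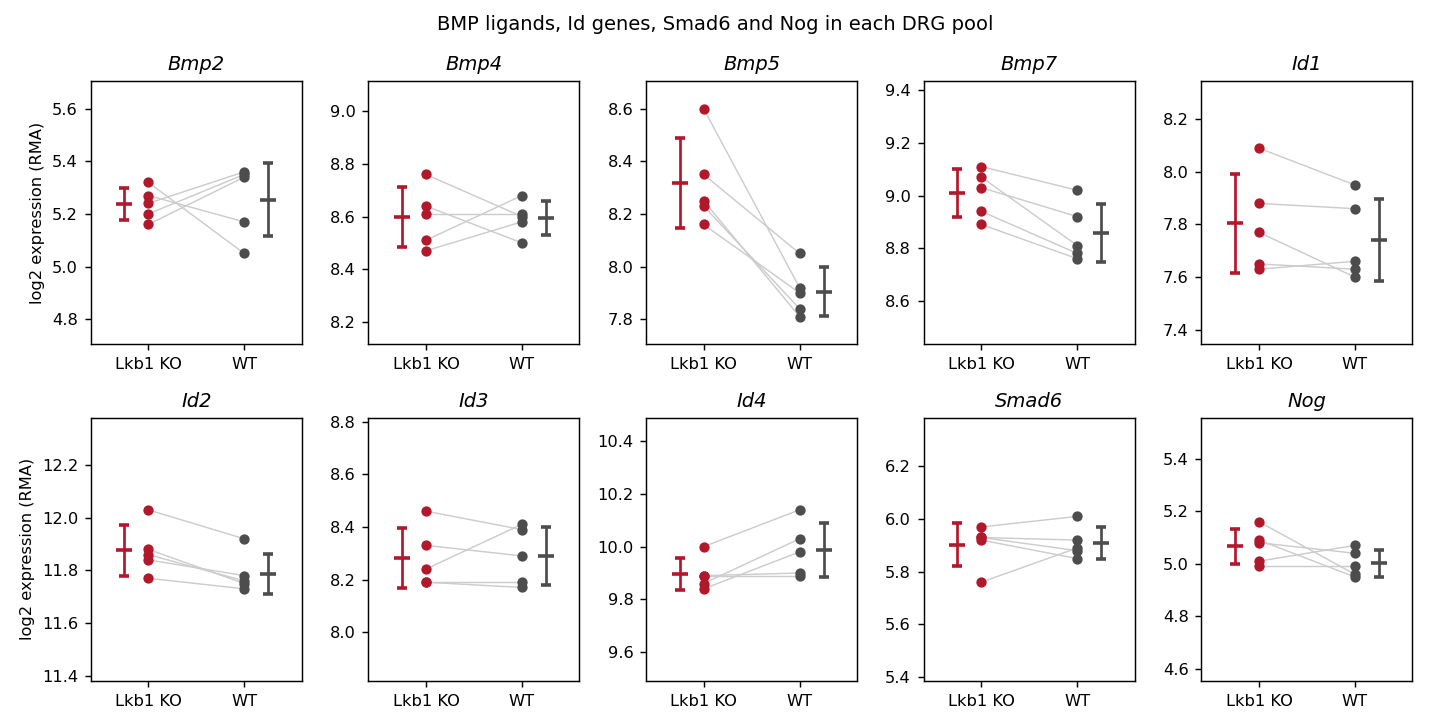
Level of each of the 10 genes (log2 RMA value) in the 5 Lkb1 KO pools on the left and the 5 WT pools on the right of each panel. Points are pools, grey lines join pools of the same replicate number, bars beside the points are the mean ± SD (n = 5), and every panel spans 1 log2 unit. The 2 sets of points are apart for Bmp5, where the lowest Lkb1 KO pool was at 8.16 and the highest WT pool at 8.05, and they overlap for the other 9 genes.

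Bmp5 encodes a ligand that is best known from the short ear mutation of the mouse, which reduces skeletal elements. Its levels were 8.60, 8.25, 8.16, 8.23 and 8.35 in Lkb1 KO pools 1 to 5, against 7.92, 7.81, 7.90, 7.84 and 8.05 in WT pools 1 to 5. Every Lkb1 KO pool lay above every WT pool, and replicate 1 was the highest of the Lkb1 KO pools. The means were 8.32 ± 0.17 in Lkb1 KO and 7.91 ± 0.093 in WT (SD, n = 5 each). This gave a log2 fold change of 0.41 (standard error 0.076, 95% interval 0.25 to 0.58, adjusted p = 0.00861 from limma), or 1.33-fold (1.19 to 1.49). An exact two-sided permutation test over all assignments of the pools gave p = 0.00794, the smallest it can give. Among all genes, 3.09% had every Lkb1 KO pool above every WT pool and 5.34% were separated in either direction.

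Between pools of the same replicate number, Bmp5 differed by 0.68, 0.44, 0.26, 0.39 and 0.30, so it was higher in Lkb1 KO in 5 of 5. Replicate 1 held the largest of these differences, and without that Lkb1 KO pool the log2 fold change was 0.34 with an adjusted p of 0.0046 from limma. An analysis of variance per gene, which does not share the spread over genes, gave an adjusted p of 0.0627, so that 0 of the 10 genes passed by it, where 1.94% of all genes did. By size, Bmp5 ranked 123 among the 496 genes that were higher in Lkb1 KO.

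The 250 bases before the start of Bmp5 are shown because they belong to the called ligand and hold letters that SMAD complexes are known to bind. The sequence is from RefSeq (GRCm38.p6, chr9:75775115-75775364, plus strand), written 5′ to 3′ and ending at the base before the start, with capitals marking the motif CAGAC, which reads GTCTG on this strand and begins 134 bases before the start.
Bmp5: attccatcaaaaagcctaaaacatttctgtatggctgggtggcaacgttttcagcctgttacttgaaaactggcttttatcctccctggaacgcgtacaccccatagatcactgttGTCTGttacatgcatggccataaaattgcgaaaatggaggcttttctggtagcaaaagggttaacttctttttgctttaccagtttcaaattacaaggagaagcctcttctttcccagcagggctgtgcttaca
CAGAC on either strand occurred in 42.2% of 32851 RefSeq promoter windows of the same length. The GC-rich letters GGCGCC, which bind SMAD1 and SMAD5 and read the same on both strands, were not in this window of Bmp5 and occurred in 9.59% of the windows. These matches describe the sequence and were not tested as binding sites.

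Bmp7, a ligand with roles in kidney and eye development, belongs with Bmp5 to a subgroup of close relatives. It was at 8.89, 9.11, 8.94, 9.07 and 9.03 in Lkb1 KO pools 1 to 5, and at 8.76, 9.02, 8.78, 8.81 and 8.92 in WT pools 1 to 5. The groups overlapped, although 3 Lkb1 KO pools lay above the highest WT pool. Means of 9.01 ± 0.092 in Lkb1 KO and 8.86 ± 0.11 in WT (SD, n = 5 each) gave a log2 fold change of 0.15 (standard error 0.059, 95% interval 0.024 to 0.28, adjusted p = 0.224 from limma). Within replicate numbers Bmp7 differed by 0.14, 0.10, 0.16, 0.26 and 0.11, higher in Lkb1 KO in 5 of 5, and in a fit blocked by replicate number its standard error was 0.038 and its adjusted p from limma 0.0481. In that blocked fit 6.42% of all genes passed. With the mean of 3 Y-linked genes as a covariate, used because their levels differed between pools, the Bmp7 difference was 0.093 (adjusted p = 0.562 from limma). Without Lkb1 KO replicates 2 and 5, whose Y-linked levels were lowest, it was 0.11 (0.498). The other genes of this subgroup had log2 fold changes of 0.054 for Bmp6 (adjusted p = 0.814 from limma), 0.039 for Bmp8a (0.706) and 0.032 for Bmp8b (0.839).

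Bmp2 and Bmp4, which form the other classical subgroup and act in dorsal patterning and in sympathetic neuron formation, did not pass. Bmp4 was at 8.61, 8.51, 8.47, 8.64 and 8.76 in Lkb1 KO pools 1 to 5, against 8.61, 8.68, 8.58, 8.50 and 8.60 in WT pools 1 to 5. The highest and the lowest pool were both Lkb1 KO, so the WT values lay inside the Lkb1 KO range. The log2 fold change was 0.0047 (standard error 0.055, 95% interval -0.12 to 0.12, adjusted p = 0.984 from limma). Bmp2 was at 5.16, 5.32, 5.20, 5.27 and 5.24 in Lkb1 KO pools 1 to 5, against 5.34, 5.05, 5.35, 5.17 and 5.36 in WT pools 1 to 5. Here the Lkb1 KO values lay inside the WT range, and the log2 fold change was -0.016 (standard error 0.062, 95% interval -0.15 to 0.12, adjusted p = 0.945 from limma). Bmp2 was close to the level of 5.18 below which the dimmest 30% of genes fell.

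The Id genes carried the most direct question, whether a transcriptional response to BMP signalling differed between the genotypes. Their 4 log2 fold changes lay between -0.095 and 0.089 with a median of 0.026, 2 above 0 and 2 below, and all 4 overlapped between the groups. Id2 was at 12.03, 11.84, 11.86, 11.88 and 11.77 in Lkb1 KO pools 1 to 5, against 11.92, 11.78, 11.76, 11.75 and 11.73 in WT pools 1 to 5. Replicate 1 was the highest in both genotypes, and Id2 was higher in Lkb1 KO within each of the 5 replicate numbers, by 0.041 to 0.13. Its change of 0.089 (standard error 0.053, 95% interval -0.026 to 0.20, adjusted p = 0.488 from limma) did not pass.

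Id4, which is expressed in neural progenitors and glial precursors, ran the other way. Its levels were 9.995, 9.893, 9.837, 9.857 and 9.891 in Lkb1 KO pools 1 to 5, against 10.140, 9.893, 9.976, 10.034 and 9.905 in WT pools 1 to 5. WT replicates 1 and 4 were the 2 highest pools, while the pools numbered 2 and 5 were nearly level between genotypes. This made a log2 fold change of -0.095 (standard error 0.052, 95% interval -0.21 to 0.017, adjusted p = 0.435 from limma).

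Id1, the classical BMP reporter gene, was at 8.09, 7.63, 7.65, 7.88 and 7.77 in Lkb1 KO pools 1 to 5, against 7.95, 7.66, 7.63, 7.86 and 7.60 in WT pools 1 to 5. Pools 1 and 4 were the highest in both genotypes, and the spread over replicate numbers exceeded the difference between the means. Its log2 fold change was 0.063 (standard error 0.092, 95% interval -0.14 to 0.26, adjusted p = 0.826 from limma). Id3, which is often co-expressed with Id1, was at 8.19, 8.24, 8.19, 8.33 and 8.46 in Lkb1 KO pools 1 to 5, against 8.17, 8.41, 8.19, 8.29 and 8.39 in WT pools 1 to 5. The 2 ranges nearly coincided (log2 fold change -0.010, standard error 0.064, 95% interval -0.15 to 0.13, adjusted p = 0.965 from limma).

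Windows around the searched motifs are shown for the Id genes because they are target genes whose windows held one of the motifs. RefSeq windows (GRCm38.p6) were found for 6 of the 10 genes (Bmp4, Bmp5, Id2, Id3, Id4 and Smad6). Each sequence is written 5′ to 3′ on the strand of the gene, with the motif in capitals. GGCGCC begins 231 bases before the start of Id2 (chr12:25096303-25096338, minus strand) and 148 before that of Id4 (chr13:48260953-48260988, plus strand). CAGAC, or GTCTG, begins 167 and 68 bases before the start of Id3 (chr4:136143640-136143674 and chr4:136143739-136143773, plus strand).
Id2: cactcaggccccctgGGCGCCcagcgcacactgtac
Id4: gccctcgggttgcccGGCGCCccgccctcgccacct
Id3, distal: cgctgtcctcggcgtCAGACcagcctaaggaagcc
Id3, proximal: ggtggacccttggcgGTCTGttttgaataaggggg
Neither motif was in the 250 bases before Bmp4 or Smad6. The shorter SMAD-binding letters GTCT, contained in GTCTG, occurred on either strand in 82.9% of all windows. None of the 3 Id genes shown passed the test between genotypes.

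Smad6 and Nog encode inhibitors that damp the pathway at different points, SMAD6 inside the cell at the receptor and noggin outside it by binding ligands. Smad6 was at 5.93, 5.97, 5.76, 5.93 and 5.92 in Lkb1 KO pools 1 to 5, against 5.88, 6.01, 5.89, 5.92 and 5.85 in WT pools 1 to 5. Lkb1 KO replicate 3 was the lowest and WT replicate 2 the highest of the 10, and the remaining pools were mixed (log2 fold change -0.0097, standard error 0.047, 95% interval -0.11 to 0.093, adjusted p = 0.956 from limma). Nog was at 4.99, 5.01, 5.08, 5.16 and 5.09 in Lkb1 KO pools 1 to 5, against 4.99, 5.07, 5.04, 4.96 and 4.95 in WT pools 1 to 5. The groups overlapped, and Nog was the 1 gene of the 10 in the dimmest 30% of genes, so its log2 fold change of 0.062 (standard error 0.042, 95% interval -0.029 to 0.15, adjusted p = 0.56 from limma) comes from a dim probe set.

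**Figure D2:**
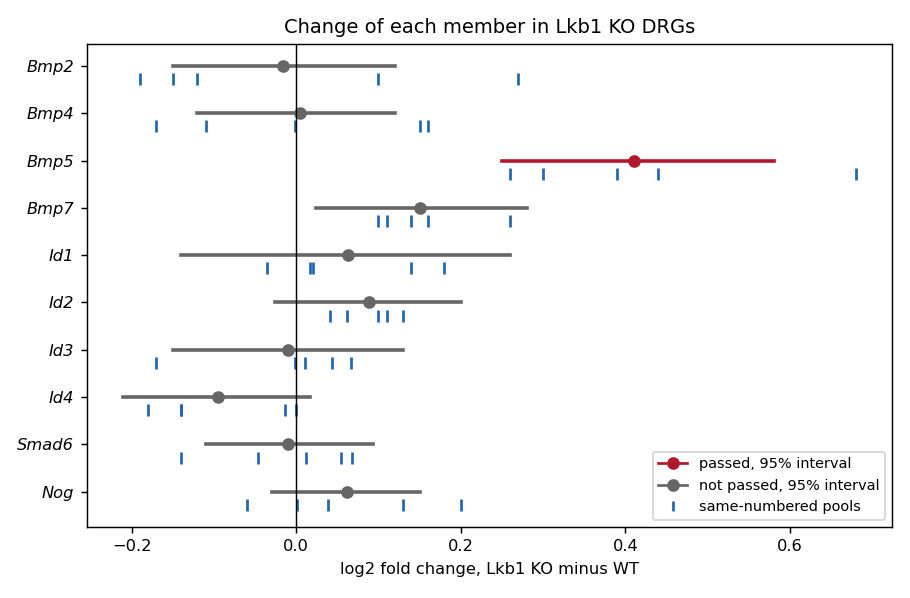
Log2 fold change (Lkb1 KO minus WT) of each of the 10 genes with its 95% interval from limma, red where the adjusted p was under 0.05, and below each the 5 differences between pools of the same replicate number as blue ticks. Bmp5 stands at 0.41 with all 5 differences above 0, Bmp7 at 0.15 and Id2 at 0.089 also have all 5 above 0, and the intervals of the 9 other genes lie between -0.21 and 0.28.

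Across the 9 genes that did not pass, the 95% intervals ran from -0.21 at the lowest (Id4) to 0.28 at the highest (Bmp7). Exact two-sided permutation tests over all assignments gave p = 0.0476 for Bmp7, 0.111 for Id4, 0.135 for Id2 and Nog, 0.571 for Id1 and 0.833 to 0.929 for Bmp2, Smad6, Id3 and Bmp4. How often same-numbered pools deviated in the same direction differed between the genes. The deviation from the group mean had the same sign in the Lkb1 KO and the WT pool of a number in 5 of 5 numbers for Bmp5 and Id1, in 4 of 5 for Bmp7, Id2 and Id4, in 3 of 5 for Bmp4, Id3 and Smad6, in 2 of 5 for Nog and in 1 of 5 for Bmp2.

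Cell type genes also differed between the genotypes, and they are given beside Bmp5 because it was measured in whole ganglia. Of all genes tested, 2.49% passed as higher and 1.38% as lower, and 15.3% had an unadjusted p under 0.05. Of 12 fibroblast and mesenchyme markers 8 were higher in Lkb1 KO, among them Col1a1 (9.30 in Lkb1 KO, 8.95 in WT), and their mean level was 8.56 to 8.62 in Lkb1 KO pools and 8.26 to 8.39 in WT pools, without overlap. Of 11 cell division genes 8 were higher, with means of 8.91 to 9.21 in Lkb1 KO and 8.56 to 8.80 in WT. Of 11 sensory neuron markers 3 were lower, with means of 9.999 to 10.123 in Lkb1 KO and 10.164 to 10.303 in WT. All 11 had a log2 fold change below 0, and 8 had an unadjusted p under 0.05. The endothelial list, with 1 of 12 higher, overlapped at 8.25 to 8.51 in Lkb1 KO and 8.21 to 8.30 in WT. Lkb1 KO replicate 1, the highest pool for Bmp5, was the highest of the endothelial (8.51), fibroblast (8.62) and pericyte (6.91) lists. In the fibroblast list the next Lkb1 KO pool was close, at 8.60. Replicate 1 was not the highest of the cell division, sensory neuron, roof plate, glial, cartilage, meningeal or macrophage lists. The roof plate list, which also holds other dorsal spinal cord markers, had 0 of 10 genes past the test (3 at an unadjusted p under 0.05). Its means were 5.63 to 5.73 in Lkb1 KO and 5.53 to 5.59 in WT, without overlap. The part of these cell types in the Bmp5 result was not tested.

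**Figure D3:**
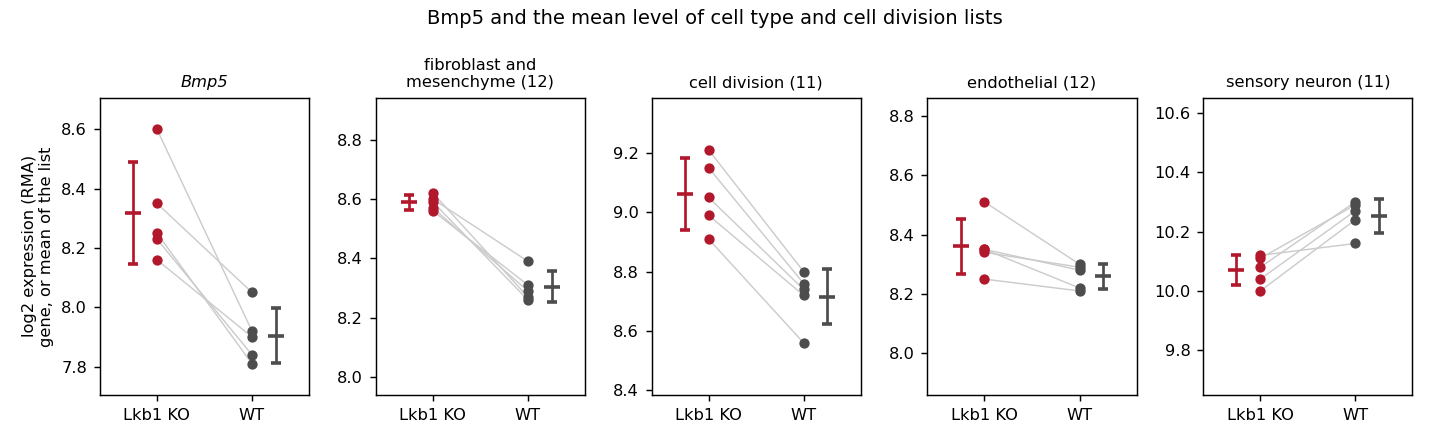
Level of Bmp5 and mean level of 4 gene lists (log2 RMA values) in the 5 Lkb1 KO pools on the left and the 5 WT pools on the right of each panel, with grey lines between pools of the same replicate number and bars for the mean ± SD (n = 5). All panels span 1 log2 unit and the number of genes is in brackets. Bmp5 and the fibroblast and cell division lists lie higher in every Lkb1 KO pool, the sensory neuron list lies lower, and the endothelial list overlaps. The glial, roof plate and cartilage lists, which are not drawn, also lay higher in every Lkb1 KO pool than in any WT pool.

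Glia, which derive from the deleted lineage, had 1 of 8 markers higher and 1 lower. The list means were 8.55 to 8.67 in Lkb1 KO pools and 8.50 to 8.52 in WT pools, without overlap. The cartilage and sclerotome list had 2 of 10 higher (6.10 to 6.23 in Lkb1 KO, 6.02 to 6.08 in WT, without overlap). The meningeal list had 2 higher and 1 lower of 10 (7.73 to 7.92 in Lkb1 KO, 7.75 to 7.85 in WT). Neither the pericyte list (6.70 to 6.91 in Lkb1 KO, 6.63 to 6.72 in WT) nor the macrophage list (6.12 to 6.22 in Lkb1 KO, 6.07 to 6.20 in WT) had a gene past the test among 10 each. Y-linked genes differed in level between the pools. The mean of 3 of them was 5.02 and 5.21 in Lkb1 KO replicates 2 and 5. It was 8.80 to 8.96 in Lkb1 KO replicates 1 and 4 and WT replicates 2 and 4. In Lkb1 KO replicate 3 and WT replicates 1, 3 and 5 it was 9.72 to 9.81. The sex of the pooled embryos was thus not balanced between the genotypes. Leaving out Lkb1 KO replicates 2 and 5 did not make the Y-linked levels even. With the Y-linked mean as a covariate the Bmp5 difference was 0.43 on the log2 scale (adjusted p = 0.0372 from limma), and without Lkb1 KO replicates 2 and 5 it was 0.43 (adjusted p = 0.0437 from limma).

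The genes most like Bmp5 in their deviations from the group means over the 10 arrays, among 19937 others, were Insr, the insulin receptor, with r = 0.94 (rho 0.92), the endothelial lectin gene Clec14a with r = 0.93 (rho 0.82) and the glutamine transporter gene Slc38a3 with r = 0.93 (rho 0.81). The 3 were picked as the highest of 19937 r values over only 10 arrays, a choice that by itself yields large values. Whether they exceed chance was not tested. Without the 2 arrays farthest from the median these r values were 0.74, 0.67 and 0.65, so they rest in part on those arrays. None of the 3 passed the test between genotypes, with log2 fold changes of 0.037 for Insr (adjusted p = 0.742 from limma), 0.16 for Clec14a (0.218) and 0.28 for Slc38a3 (0.161).

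Around these 10 genes, 74 of 77 other listed genes of the pathway were measured. Of these, 2 were higher (Gdf10 and Fst) and 2 lower (Bmper and Tbx3) in Lkb1 KO, against 2.49% higher and 1.38% lower of all genes. At an unadjusted p under 0.05 there were 13 of 74, against 15.3% of all genes. Their median log2 fold change was 0.031, with 53 above 0 and 21 below, where 49.1% of all genes were above 0. Of the 74, 23 were in the dimmest 30% of genes. Over the 51 others the median was 0.015, with 34 above 0 and 17 below.

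**Figure D4:**
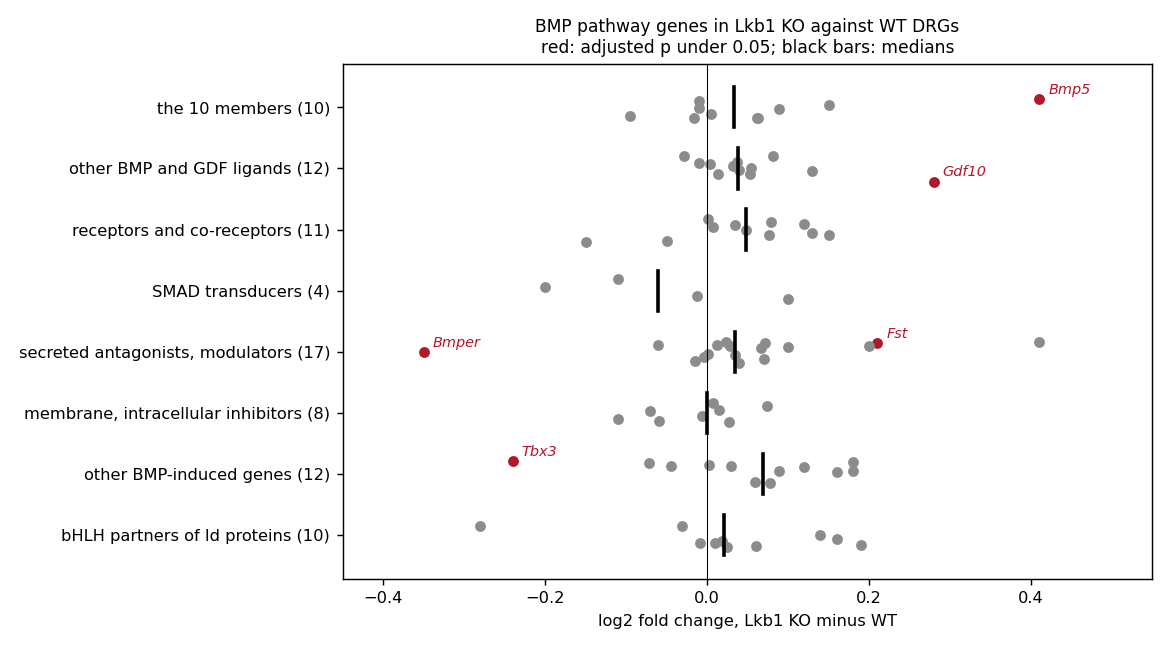
Log2 fold change (Lkb1 KO minus WT) of every measured gene of the pathway, grouped by role, with the number of genes in brackets. Each point is a gene, red and labelled where it passed in limma at an adjusted p under 0.05, and black bars are medians. The 5 red genes are Bmp5 (0.41), Gdf10 (0.28), Fst (0.21), Tbx3 (-0.24) and Bmper (-0.35), and the group medians lie between -0.06 and 0.068.

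Among 12 other BMP and BMP-like GDF ligands, Gdf10 was the 1 that passed. Gdf10, also called Bmp3b, is a divergent ligand that is grouped with Bmp3. Its levels were 6.53, 6.56, 6.49, 6.57 and 6.51 in Lkb1 KO pools 1 to 5, against 6.38, 6.21, 6.29, 6.17 and 6.22 in WT pools 1 to 5. The groups did not overlap, and the Lkb1 KO pools were the more tightly spaced. The means of 6.53 ± 0.036 in Lkb1 KO and 6.25 ± 0.082 in WT (SD, n = 5 each) gave a log2 fold change of 0.28 (standard error 0.043, 95% interval 0.19 to 0.38, adjusted p = 0.00278 from limma), or 1.22-fold, and the exact two-sided permutation p was 0.00794. Bmp3 (0.13, adjusted p = 0.546 from limma) and Bmp15 (0.082, 0.487) came next by p, both at levels among the dimmest 30% of genes.

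The 250 bases before the start of Gdf10 are shown beside those of Bmp5 as the other called ligand (RefSeq, GRCm38.p6, chr14:33923337-33923586, plus strand, 5′ to 3′), with CAGAC in capitals, beginning 98 bases before the start.
Gdf10: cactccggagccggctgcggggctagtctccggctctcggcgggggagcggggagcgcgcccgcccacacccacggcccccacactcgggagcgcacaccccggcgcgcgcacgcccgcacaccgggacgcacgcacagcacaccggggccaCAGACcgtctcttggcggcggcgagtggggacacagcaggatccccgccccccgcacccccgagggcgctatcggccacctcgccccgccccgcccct
Both called ligands thus held CAGAC, a motif present in 42.2% of all windows, and neither held GGCGCC. The window of Bmper, which was also called, held neither motif. No window was found for the called genes Fst and Tbx3.

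None of 11 receptors and co-receptors passed (1 at an unadjusted p under 0.05), and their median log2 fold change was 0.048. The type II receptor gene Acvr2b had -0.15 (95% interval -0.29 to -0.013, adjusted p = 0.271 from limma), and the type I receptor genes Bmpr1a and Bmpr1b had 0.077 (adjusted p = 0.351 from limma) and 0.15 (0.355). Bmpr2, the main type II receptor gene for BMPs, was at 11.54 in both genotypes, with a 95% interval of -0.076 to 0.078.

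None of the 4 genes for signal-transducing SMADs passed without the block (2 at an unadjusted p under 0.05). Smad9 was at 7.71, 7.50, 7.61, 7.40 and 7.20 in Lkb1 KO pools 1 to 5, against 7.95, 7.72, 7.77, 7.69 and 7.32 in WT pools 1 to 5. Pools 1 and 5 were the highest and the lowest in both genotypes, and Lkb1 KO was lower in 5 of 5 numbers. The difference was -0.20 on the log2 scale (standard error 0.11, 95% interval -0.45 to 0.038, adjusted p = 0.439 from limma), and blocking by replicate number gave a standard error of 0.038 and an adjusted p of 0.0126 from limma. Smad1 had -0.11 (adjusted p = 0.16 from limma, lower in 5 of 5 numbers) and Smad5 0.10 (0.16), with all 5 Lkb1 KO pools of Smad5, at 9.43 to 9.53, above the WT pools at 9.37 to 9.39. Smad4, the common partner, had -0.012 (95% interval -0.09 to 0.066).

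Secreted antagonists and modulators held 1 higher and 1 lower gene of 17. Bmper, which encodes a chordin-related protein that binds BMPs and is known from endothelial and lung development, was at 7.70, 7.52, 7.37, 7.46 and 7.23 in Lkb1 KO pools 1 to 5, against 7.87, 7.87, 7.75, 7.78 and 7.74 in WT pools 1 to 5. All Lkb1 KO pools lay below all WT pools and were spread more widely, at 7.46 ± 0.18 in Lkb1 KO and 7.80 ± 0.067 in WT (SD, n = 5 each). On the log2 scale Bmper differed by -0.35 (standard error 0.073, 95% interval -0.50 to -0.19, adjusted p = 0.0201 from limma), which is 1.27-fold higher in WT, with an exact two-sided permutation p of 0.00794. With the Y-linked mean as a covariate the adjusted p from limma was 0.121, and without Lkb1 KO replicates 2 and 5 it was 0.0702. The call was also lost without Lkb1 KO replicate 3 (0.0523), WT replicate 1 (0.0519) or WT replicate 2 (0.0567).

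Fst encodes follistatin, which binds activins and several BMPs. It was at 8.11, 8.04, 8.20, 7.98 and 7.93 in Lkb1 KO pools 1 to 5, against 7.82, 7.93, 7.84, 7.82 and 7.81 in WT pools 1 to 5. WT replicate 2 was level with the lowest Lkb1 KO pool, and the other 4 WT pools were lower. This was a change of 0.21 on the log2 scale (standard error 0.051, 95% interval 0.10 to 0.32, adjusted p = 0.0421 from limma), and the call was lost in 7 of the 10 fits that left out 1 pool (adjusted p 0.0749 to 0.105), those without Lkb1 KO replicates 1 to 3 or without any WT pool but replicate 2.

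Sostdc1, a secreted modulator of both BMP and Wnt signalling, had as large a log2 fold change as Bmp5 but a wider spread. It was at 11.29, 10.99, 11.09, 10.93 and 10.61 in Lkb1 KO pools 1 to 5, against 10.95, 10.68, 10.44, 10.51 and 10.27 in WT pools 1 to 5. Pool 1 was the highest and pool 5 the lowest in both genotypes. The change of 0.41 (standard error 0.13, 95% interval 0.12 to 0.69, adjusted p = 0.125 from limma) passed once the replicate number was a block, with a standard error of 0.052 and an adjusted p of 0.0018 from limma, and it also passed without Lkb1 KO replicate 5 (0.0455) or WT replicate 1 (0.0444).

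None of 8 other membrane and intracellular inhibitors passed (1 at an unadjusted p under 0.05), and their median log2 fold change was 5.4e-04. The pseudoreceptor gene Bambi, itself a BMP target in other settings, had -0.11 (95% interval -0.22 to -0.0041, adjusted p = 0.302 from limma). Smad7, the second inhibitory SMAD, was at 6.37 in Lkb1 KO and 6.36 in WT (95% interval -0.10 to 0.12). Tob2 (0.074, adjusted p = 0.555 from limma) and Skil (-0.059, 0.633), a co-repressor of SMADs, did not pass.

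Of 12 other genes known to be induced by BMP signalling in some tissues, 1 was lower and none higher. Tbx3, a T-box repressor, was at 7.951, 8.039, 8.099, 8.004 and 7.933 in Lkb1 KO pools 1 to 5, against 8.356, 8.246, 8.371, 8.229 and 8.046 in WT pools 1 to 5. WT replicate 5 lay among the Lkb1 KO pools and the other 4 WT pools lay above them. The change was -0.24 on the log2 scale (standard error 0.06, 95% interval -0.38 to -0.11, adjusted p = 0.041 from limma), and the call was lost in 8 of the 10 fits that left out 1 pool (adjusted p 0.0732 to 0.109), all but those without Lkb1 KO replicate 3 (0.0452) or WT replicate 5 (0.00628), and with the Y-linked covariate (0.175). Msx2, a homeobox gene, was at 4.75 to 4.89 in Lkb1 KO and 4.61 to 4.74 in WT, without overlap but among the dimmest 30% of genes (log2 fold change 0.16, adjusted p = 0.0544 from limma, 0.0276 when blocked by replicate number, 0.0305 with array weights and 0.0376 without Lkb1 KO replicate 5). Msx1, its relative, had 0.12 (adjusted p = 0.184 from limma), also at a dim level.

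The basic helix-loop-helix partners of the Id proteins and the neuronal factors of this class had 0 of 10 past the test (1 at an unadjusted p under 0.05). Tcf4, an E protein that Id proteins bind, was at 9.86, 10.01, 9.92, 9.87 and 10.05 in Lkb1 KO pools 1 to 5, against 9.72, 9.83, 9.79, 9.74 and 9.86 in WT pools 1 to 5. The lowest Lkb1 KO pool lay just above the highest WT pool (log2 fold change 0.16, 95% interval 0.053 to 0.26, adjusted p = 0.102 from limma), and blocking by replicate number gave an adjusted p of 0.0283 from limma. With array weights the Tcf4 change was 0.17 and passed as well (adjusted p = 0.0335 from limma). The other E proteins Tcf12 (0.06, adjusted p = 0.624 from limma) and Tcf3 (0.025, 0.921) did not pass, nor did Hes1 (0.14, 0.391).

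**Figure D5:**
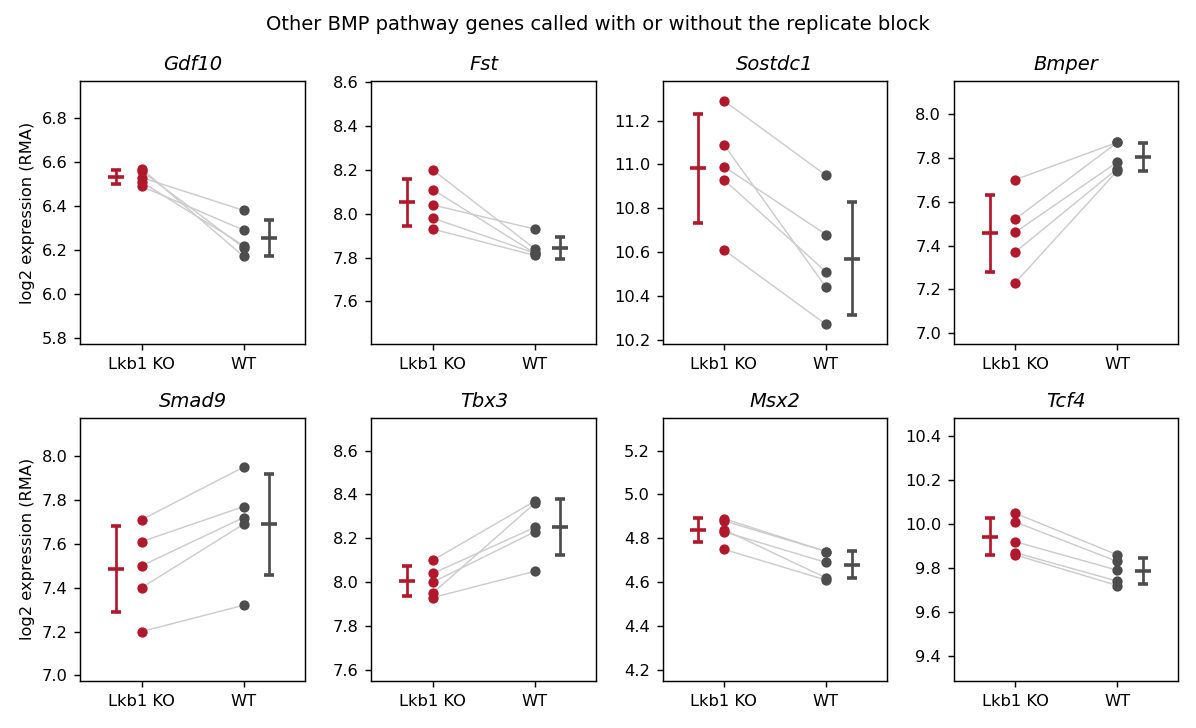
Levels (log2 RMA values) of 8 other pathway genes in the 5 Lkb1 KO pools on the left and the 5 WT pools on the right of each panel, chosen because they passed with or without the replicate block. Grey lines join pools of the same replicate number, bars are the mean ± SD (n = 5), and all panels have the same span. Within replicate numbers the differences were 0.13 to 0.19 for Tcf4, -0.28 to -0.12 for Smad9 and 0.30 to 0.65 for Sostdc1, whose largest difference was in number 3.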

How the data were processed

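The authors deposited log2 values for 35556 probe sets on each of 10 arrays. RMA (background correction, quantile normalization and probe set summary) and Partek 6.6 are named in the submitters' processing notes. MATLAB and a false discovery rate of 0.01 are named in the methods. No build is named with these values, and scanner files and detection calls were not used here. Total RNA was 250 ng per array.

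By the platform annotation 21789 probe sets had 1 gene, 1621 had several and 12146 had none listed, and 21698 of those with 1 gene matched RefSeq. The probe set with the highest mean was kept for each of 999 genes with several, leaving 19938 genes. Each of the 10 genes studied had a single probe set. Listed genes without a probe set of their own were not analysed here.

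The genotypes were compared by two-sided tests in limma 3.58.1 (lmFit, eBayes; R 4.3.3) without a filter on dim genes, and p-values were Benjamini-Hochberg adjusted over all genes and called under 0.05. Exact permutation tests covered single genes; exchanging labels within replicate numbers gives 32 arrangements and cannot go below p = 0.0625. Tables were joined with pandas 2.3.3 in Python 3.11.15. Named were the 10 genes, Stk11, every called gene of a pathway list and the 3 of each list with the smallest p, and the 3 genes most like a called member. Bmp6, Bmp8a, Bmp8b, Bmpr2, Smad4, Smad7, Tcf3 and the marker genes given by name were added after their values were seen. The genes studied, the lists and the tests were chosen with earlier results of these data known.

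The labels call the samples biological replicates. Deviations of same-numbered Lkb1 KO and WT pools from their group means correlated at 0.21 to 0.48 across genes, and those of differently numbered pools at -0.48 to 0.31. The ranges overlapped, and Lkb1 KO replicate 4 correlated at 0.31 with WT replicate 5 but at 0.21 with WT replicate 4. The numbers were taken as a possible pairing, used for the blocked fit and the differences within numbers but not for the main fit. This rests on the values, since the labels do not say what a number marks. No 2 arrays of a group held the same values (SD of their log2 differences 0.120 to 0.198). The number of arrays limits the precision. Alternatives were array medians aligned, cyclic loess, array weights, a robust prior with an intensity trend, a per-gene analysis of variance, removal of the dimmest 30% of genes, all probe sets, probe sets averaged per gene, the replicate block, a Y-linked covariate, each pool left out, Lkb1 KO replicates 2 and 5 left out, and a threshold of 0.01. On simulated data for this comparison over 19938 genes, 88 of 100 genes changed by 0.4 and 100 of 100 changed by 1 were recovered, and 11 unchanged genes were called.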

Additional observations from a re-analysis of the deposited data

Results flagged for a closer look

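Among 64 groups of 5 pools (32 genes in each genotype), 4 held a pool set apart from the rest of its group, where chance sets apart about 1 in 20 groups. For Id2, WT replicate 1 was the highest of its group at 11.92, with the next WT pool at 11.78 and a gap of 0.72 of the range. Id2 was also highest in replicate 1 among the Lkb1 KO pools. For Smad6, Lkb1 KO replicate 3 was the lowest at 5.76, with the next at 5.92 and a gap of 0.75 of the range. For the activin- and BMP-binding Fst, WT replicate 2 was the highest at 7.93, with the next at 7.84 and a gap of 0.81 of the range. For Tob2, an inhibitor of SMAD signalling, Lkb1 KO replicate 1 was the lowest at 5.64, with the next at 5.84 and a gap of 0.76 of the range.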

How the results depend on the processing

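Bmp5 stayed higher in Lkb1 KO in all 21 alternatives, at 0.34 to 0.45, and passed in 20. Counts out of 21 leave out the threshold of 0.01. Not all of the 21 could move an estimate. For the 10 genes, the analysis of variance, the robust prior, removal of dim genes, both probe set settings and the block left it unchanged. They could alter only the spread or the adjustment, so they say nothing on direction. The analysis of variance per gene gave 0.41 with an adjusted p of 0.0627. Bmp7 passed in 1 of 21, with the replicate block (0.15, adjusted p = 0.0481 from limma), and was 0.093 with the Y-linked covariate (0.562). Id2 and Id4 kept their direction in every alternative and Nog in every one that kept dim genes. None of the Id genes, Smad6, Nog, Bmp2 or Bmp4 passed in any. Values near 0 changed sign: Bmp2 was 0.0075 with array weights, Bmp4 -0.028 with array weights, -0.025 with the Y-linked covariate and -0.018 without Lkb1 KO replicates 2 and 5, Id1 -0.0087 with array weights, Id3 0.011 with cyclic loess, and Smad6 3.1e-04 with aligned medians. Leaving out 1 pool gave -0.067 to 0.0099 for Bmp2, -0.035 to 0.036 for Bmp4, -0.009 to 0.12 for Id1, -0.055 to 0.019 for Id3, -0.026 to 0.026 for Smad6, 0.34 to 0.45 for Bmp5, 0.13 to 0.19 for Bmp7, 0.051 (without Lkb1 KO replicate 1) to 0.12 for Id2, -0.12 to -0.057 (without WT replicate 1) for Id4 and 0.038 (without Lkb1 KO replicate 4) to 0.081 for Nog. Called among the 10 genes were 0 with the analysis of variance and 2 with the block. Of the other pathway genes, higher ones numbered 1 with the analysis of variance, 4 with array weights, 5 with the block, 1 at a threshold of 0.01 and 1 to 4 when 1 pool was left out. Lower ones numbered 1 with aligned medians or cyclic loess, 3 with the block, 0 with the analysis of variance, the Y-linked covariate, Lkb1 KO replicates 2 and 5 left out or a threshold of 0.01, and 0 to 2 when 1 pool was left out. Gdf10 passed in 21 of 21 alternatives, Bmper in 15, Fst in 12 and Tbx3 in 8. At the threshold of 0.01, which is not among the 21, Bmp5 and Gdf10 passed and Bmper, Fst and Tbx3 did not. The block changed no other call among these genes than those of Bmp7, Smad9, Sostdc1, Msx2 and Tcf4. Over all genes, higher ones numbered 260 with the analysis of variance, 285 with the Y-linked covariate, 288 without Lkb1 KO replicates 2 and 5, 231 at 0.01 and 333 to 487 when 1 pool was left out. Lower ones numbered 127 with the analysis of variance, 565 with the block, 171 without Lkb1 KO replicates 2 and 5, 82 at 0.01 and 146 to 347 when 1 pool was left out (179 without Lkb1 KO replicate 3, 173 without replicate 4, and for WT replicates 1 to 4 it was 182, 148, 146 and 152). The cause of these shifts was not tested. No detection limit is given with the values, which bears most on the dim Nog and Bmp2.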
